A study of Mus musculus with 2 samples.

Results

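Potassium channel genes were followed across the cell types of mouse skeletal muscle. Members were all genes whose symbol begins with Kcn, followed by letters and a closing number, which gave 92 of the 33696 genes listed. Grouped by the letters of the symbol, they were 40 voltage-gated pore subunits, 15 inward rectifiers and 14 two-pore-domain leak channels. The other groups were 8 channels of the calcium- or sodium-activated families, Kcnu1 among them, and 15 auxiliary subunits. The groups name families, not the gating of each member. Single-cell RNA was counted in 2 libraries, 1 labelled WT and 1 labelled KO, each pooled from 10 tibialis anterior muscles of 5 male mice of that strain. Age, the meaning of ND in the sample names, and the allele or promoter behind the KO label are not given in the sources used here. The series title concerns insulin-like growth factor I in mesenchymal progenitors. Igf1 stood at 394 CPM (UMIs scaled to the total of the cell class) in fibro-adipogenic progenitors of the library labelled WT and 419 CPM in those of the library labelled KO, so it was not lower in that class. In tenocytes, described below, it stood at 238 and 81.97 CPM and in perineurial cells at 60.7 and 142 CPM in the same order. Whether the counted end of the transcript lies outside a deleted stretch was not tested. The labels call the cells fibro-adipogenic progenitors (FAPs, the resident mesenchymal cells of muscle), whereas the suspension held many other types.

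Potassium channels let potassium cross the membrane and so set the resting potential of a cell. In vascular smooth muscle and pericytes, opening of these channels hyperpolarises the cell, closes voltage-gated calcium channels and relaxes the vessel. In endothelium, calcium-activated and inward rectifier channels start a hyperpolarisation that spreads to the vessel wall, and in Schwann cells potassium channels take part in the handling of potassium around axons.

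Cells were assigned to 13 classes by markers that include no potassium channel gene. In the library labelled WT 8310 of 10272 kept barcodes (80.9%) had a class, and in the library labelled KO 13561 of 18554 (73.1%). Median UMIs (unique transcript counts) per kept barcode were 2953.5 and 4258.5, so the library labelled KO was the deeper one. The libraries shared 57 kept barcodes, of which 13 had the same class in both. The median cell of each class carried at least 4 of its own 8 markers, and tenocytes also carried a median of 2 FAP markers and the monocytes of the library labelled KO a median of 2 neutrophil markers. Values below are CPM, the usual scaling of UMIs to the total UMIs of the class, given first for the library labelled WT and then for the library labelled KO. They compare cell types within a gene, not one gene with another. Classes were compared with edgeR's quasi-likelihood test with the library as a block and Benjamini-Hochberg adjustment over all genes tested. A call needed an adjusted p under 0.05 and at least a 2-fold difference. With the library as a block, these p-values measure how far class differences vary between 2 libraries that also differ in genotype. That spread is estimated over all classes of a fit together. It is not the spread between mice, which were pooled.

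Of the 92 members, 1 (Kcnk9) had no UMI, 30 had 1 to 49 UMIs and 61 had at least 50 in the classed cells. At least 20 CPM in both libraries of a class or sub-class was reached by 38. These were 14 of the 40 voltage-gated genes, 5 of the 15 inward rectifiers and 6 of the 14 leak channels. The rest were 5 of the 8 in the calcium- or sodium-activated group and 8 of the 15 auxiliary subunits. Of the 34 that reached this level in a main class, 23 did so in 1 class alone. By the mean of the 2 libraries, the highest class was glial for 9, mural for 6, and endothelial, tenocyte, perineurial and myofibre for 3 each. It was the same class in both libraries for 30 of the 34. Kcnip1 and Kcnj2, highest by the mean in perineurial cells, were not highest there in the library labelled KO. For 28 of the 34 both values of the highest class lay above both values of the next. For the others, such as Kcna5, Kcnj2 and Kcnt2, the 2 leading classes overlapped. The highest class was picked from these same values. The same counts were not made over all genes, so they do not set potassium channel genes apart from others.

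Mural cells, the smooth muscle cells and pericytes that wrap vessels, were compared with the mean of the other classes. Each class weighed equally in this mean, on the log2 scale, so classes with few or no UMIs lowered it. The glial, stromal and endothelial comparisons below were made likewise. Of 61 members tested 29 were higher and 0 lower, where 25.9% of all genes tested were called higher and 3.03% lower. Some calls were small in CPM + 1, such as Kcnk7, with log2 differences of 0.83 and 0.53 in each library alone. The members' median difference was 1.86 on the log2 scale, against 0.46 for all genes, and 32 members had an unadjusted p under 0.05. The split was 27 higher and 2 lower with only classes of at least 100 cells, and 20 higher and 6 lower by DESeq2. Kcnj8, the inward rectifier that forms the pore of the vascular ATP-sensitive channel, had 381 and 423 CPM in mural cells and 1.76 and 4.35 CPM in endothelial cells, the next class. Its difference from the mean of the other classes was 8.18 ± 0.19 (SE) on the log2 scale (edgeR adjusted p = 4.3e-24). Kcnab1, an auxiliary beta subunit of Shaker channels, had 726 and 504 CPM in mural cells, and 153 and 166 CPM in tenocytes, the next class (log2 difference 6.47 ± 0.20, edgeR adjusted p = 1.1e-20).

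Pericytes (546 and 876 cells) were then compared with smooth muscle cells (423 and 413 cells). Of 55 members tested, 3 were higher in pericytes and 18 in smooth muscle, where 7.37% of all genes tested were called higher in pericytes and 9.56% in smooth muscle. The members' median log2 difference was -0.43 and that of all genes 0.06. All 21 calls had the same sign in each library taken alone.

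Kcnj8 had 909 and 839.7 CPM in pericytes and 13.9 and 22.9 CPM in smooth muscle cells, a log2 difference of 5.37 ± 0.28 (edgeR adjusted p = 7.2e-11). At least 1 Kcnj8 UMI was seen in 76.01% and 87.2% of pericytes. With each cell thinned to 2000 UMIs, and 182 and 69 shallower pericytes left out, the shares were 71.98% and 71.4%, against 0.518% and 0.828% of capillary cells (0.616% and 2.15% before thinning). Kcnj8 lies at chr6:142564837-142571614 (minus strand, mm10), 16247 bases from Abcc9, the gene of the regulatory subunit of the same channel. Abcc9 had 3019.5 and 2609.9 CPM in pericytes and 164 and 136 CPM in smooth muscle (log2 difference 4.02 ± 0.21, edgeR adjusted p = 8.0e-11), so both genes had the same order. The related pair Kcnj11 and Abcc8, neighbours on chromosome 7, had the opposite order. Kcnj11 had 7.86 and 2.62 CPM in smooth muscle and no UMI in pericytes, which allows up to 2.003 and 0.642 CPM. It was thus at least 3.92-fold higher in smooth muscle, but it had too few UMIs to be among the members tested there. Abcc8 had 27.2 and 21.3 CPM in smooth muscle and 0 and 0.428 CPM in pericytes (edgeR adjusted p = 2.2e-05).

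Kcnmb2, an auxiliary subunit of the large-conductance calcium-activated (BK) channel, had 36.7 and 8.35 CPM in pericytes and 1.21 and 0.982 CPM in smooth muscle (edgeR adjusted p = 0.0012). Both pericyte values lay above both smooth muscle values, although the pericyte values themselves were far apart. The transient outward channel Kcnd3 had 28.05 and 36.6 CPM against 10.9 and 10.8 CPM (edgeR adjusted p = 0.022). That call was lost without the library block (edgeR adjusted p = 0.14) and by DESeq2 (adjusted p = 0.11).

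Smooth muscle cells held the BK pore. Kcnma1, which encodes it, had 486 and 334 CPM in smooth muscle and 2.67 and 3.42 CPM in pericytes (log2 difference -7.09 ± 0.34 for pericytes, edgeR adjusted p = 2.2e-11). Its subunit Kcnmb1 had 52.00 and 48.4 CPM against 12.7 and 16.9 CPM (edgeR adjusted p = 5.0e-04). Kcnmb1 lies within Kcnip1 on the opposite strand, and whether counting used the strand is not given in the sources used here. Kcnab1 had 1570.4 and 1216 CPM in smooth muscle and 15.4 and 12.2 CPM in pericytes (log2 difference -6.85 ± 0.31, edgeR adjusted p = 1.6e-11). For each of these genes the groups did not overlap.

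Kcnj2, a strong inward rectifier, had 106 and 74.95 CPM in smooth muscle and 35.4 and 17.98 CPM in pericytes (edgeR adjusted p = 3.0e-05). The acid-sensitive leak channel Kcnk3 had 54.4 and 40.9 CPM against 2.67 and 1.93 CPM (edgeR adjusted p = 2.5e-06). Both smooth muscle values were the higher ones for both genes as well. Kcnn3, a small-conductance calcium-activated channel, had 40.5 and 34.4 CPM against 8.68 and 1.28 CPM (edgeR adjusted p = 4.5e-05). Kcnh2, a channel of the ether-a-go-go family, had 15.1 and 9.82 CPM in smooth muscle and 0 and 1 UMIs in pericytes (edgeR adjusted p = 1.1e-04).

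The leak channel Kcnk1 had 29.6 and 17.3 CPM in smooth muscle and no UMI in pericytes. Taking 3 counts per library as the limit of a count of 0, it was at least 14.8-fold higher in smooth muscle, a call that DESeq2 did not make (adjusted p = 0.38). Kcnt2, a sodium-activated channel, had 87.1 and 97.9 CPM in smooth muscle and 76.1 and 21.6 CPM in pericytes, a call lost without the library block (edgeR adjusted p = 0.059).

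Kcne4, an auxiliary subunit of voltage-gated channels, had 167 and 196 CPM in pericytes and 121 and 155 CPM in smooth muscle (edgeR adjusted p = 0.69). Kcna5, a Shaker pore known from vascular muscle, had 46.7 and 83.7 CPM against 62.9 and 73.97 CPM (edgeR adjusted p = 0.43). Neither difference was called. Mural cells in neither sub-class (404 and 739 cells) had levels between the others for Kcnj8 (250.02 and 264 CPM), Kcnab1 (492 and 531 CPM) and Kcnma1 (116 and 62.5 CPM). For Kcnt2 (249.3 and 152 CPM) and Kcnq5 (255 and 84.2 CPM) they were above both sub-classes of the same library.

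**Figure D1:**
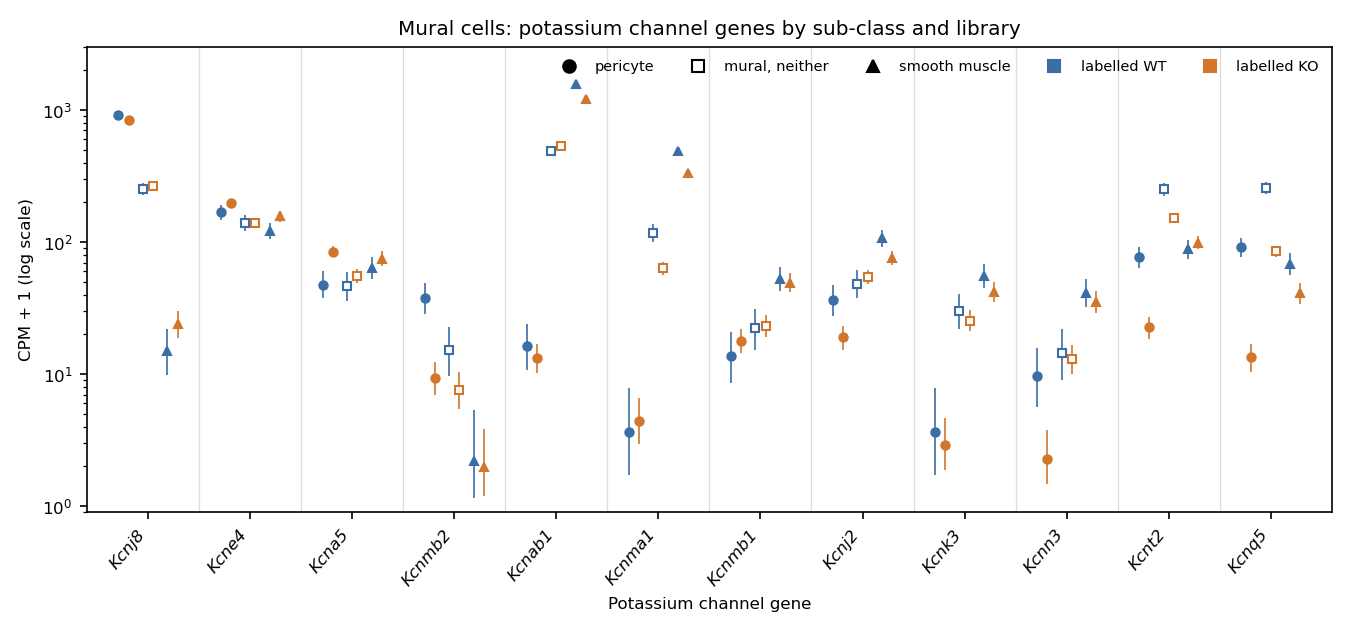
CPM + 1 on a log scale for potassium channel genes in pericytes, in mural cells of neither sub-class and in smooth muscle cells, with exact Poisson intervals for counting error; blue is the library labelled WT and orange KO. Kcnj8 falls from pericytes (909 and 839.7 CPM) to smooth muscle (13.9 and 22.9 CPM), while Kcnab1, Kcnma1 and Kcnk3 run the other way.

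Of 28 listed potassium transport partners (pumps, cotransporters and other channels that are not members) 24 were tested in mural cells, with 11 higher and 2 lower, where 25.9% of all genes tested were called higher and 3.03% lower. Of 17 calcium entry and chloride channel genes 13 were higher and 2 lower in the same comparison. Cacna1c, the pore of the L-type calcium channel, had 1116 and 1030.3 CPM, and the calcium-activated chloride channel Ano1 had 424 and 241 CPM in mural cells. The calcium release channel Ryr2, which activates BK channels in smooth muscle, had 223 and 260.2 CPM in smooth muscle and 0.668 and 1.28 CPM in pericytes (edgeR adjusted p = 7.3e-11).

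The promoters of Kcnj8 and Kcnk1 are shown because Kcnj8 led the calls in pericytes and Kcnk1 was the call in myelinating Schwann cells, described next. Both are the 250 bases before the start in RefSeq (GRCm38.p6, the build also called mm10), 5′ to 3′ on the gene's strand. Kcnj8 is taken from chr6:142571615-142571864 on the minus strand and Kcnk1 from chr8:125994852-125995101 on the plus strand. Capitals mark ACAATG, a core bound by Sox factors, searched on both strands.
Kcnj8: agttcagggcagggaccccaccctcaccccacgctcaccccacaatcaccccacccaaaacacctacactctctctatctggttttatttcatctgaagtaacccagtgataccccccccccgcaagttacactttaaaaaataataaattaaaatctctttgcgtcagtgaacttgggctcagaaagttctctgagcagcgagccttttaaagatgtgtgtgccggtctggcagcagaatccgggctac
Kcnk1: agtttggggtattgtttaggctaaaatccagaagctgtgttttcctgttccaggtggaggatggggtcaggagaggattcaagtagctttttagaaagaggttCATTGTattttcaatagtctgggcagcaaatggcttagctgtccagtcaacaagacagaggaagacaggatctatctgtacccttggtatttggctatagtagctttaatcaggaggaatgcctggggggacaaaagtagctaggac
The Kcnk1 window held 1 such match, on the opposite strand, and the Kcnj8 window 0, where 10.7% of 32851 RefSeq windows of this length held it. The CArG box, bound by serum response factor, was in neither window, in 1.47% of all windows, and in 0 of the 67 members with a window in the table. A match is a string of letters only, and binding was not measured.

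Glial cells, here Schwann cells (367 and 589 cells), were compared with the other classes in the same way. Of 61 members tested 24 were higher and 1 lower, where 24.1% of all genes tested were called higher and 4.34% lower. The members' median log2 difference was 0.77, and that of all genes 0.38. The split was 22 and 4 with only classes of at least 100 cells, and 18 and 3 by DESeq2. Of the 25 calls, 24 had their sign in each library alone, the exception being Kcnip4.

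Kcna1, a Shaker channel known from nerve, had 947 and 968 CPM in glial cells and 10.7 and 0 CPM in perineurial cells, the next class (log2 difference 10.22 ± 0.22, edgeR adjusted p = 1.4e-22). At least 1 Kcna1 UMI was seen in 80.9% and 86.4% of glial cells. Thinned to 2000 UMIs, with 73 and 33 shallower cells left out, the shares were 68.03% and 67.6%, against 0.518% and 0.514% of capillary cells. Most Schwann cells of both libraries therefore held the transcript, at nearly equal shares once depth was equal. Its partner Kcna2 had 359.6 and 327 CPM, with 24.8 and 5.54 CPM in FAPs, the next class. Kcna6, another Shaker pore, had 95.5 and 110.3 CPM in glial cells and 0 and 2.23 CPM in perineurial cells, the next class. Kcna1 and Kcna6 lie 61944 bases apart on chromosome 6, and Kcna5 lies 104984 bases from Kcna1. Kcna5 had 0 and 1.09 CPM in glial cells, so these neighbours had different class orders.

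Kcnh8, of the ether-a-go-go family, had 315 and 222 CPM in glial cells and 0 and 3.80 CPM in neutrophils, the next class. Kcnq5, which carries M-type current in neurons, had 377 and 309 CPM in glial cells. It was higher still in B cells, at 590.4 and 729.6 CPM, and had 192 and 306 CPM in T cells, so it did not mark glia alone. Kcnmb4, the neuronal BK subunit, had 61.8 and 56.2 CPM. The leak channel Kcnk10 had 47.4 and 66.3 CPM, and the small-conductance calcium-activated channel Kcnn2 had 49.8 and 60.9 CPM. Each was higher in glial cells than in any other class in both libraries. Kcnn4, the intermediate-conductance calcium-activated channel, had 47.4 and 50.2 CPM in glial cells and was higher in T cells (76.8 and 113 CPM). The G-protein-gated rectifier Kcnj3 had 37.7 and 29.5 CPM, a call that DESeq2 did not make (adjusted p = 0.24). Kcnj10, the rectifier known from astrocytes and satellite glia, had only 20.9 and 12.6 CPM (edgeR adjusted p = 1.1e-08).

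Myelinating Schwann cells (43 and 40 cells) were compared with non-myelinating ones (304 and 527 cells). Of 55 members 1 was higher and 7 were lower, where 4.93% of all genes tested were called higher and 7.41% lower. The gene that was higher was Kcnk1, with 317 and 384 CPM in myelinating cells and no UMI in non-myelinating cells of either library. It was at least 113-fold higher with 3 counts as the limit (edgeR adjusted p = 1.0e-08). Kcna1 had 1157 and 1689.5 CPM in myelinating and 927 and 929.7 CPM in non-myelinating cells (edgeR adjusted p = 0.24), and Kcna2 had 258 and 233 CPM against 378 and 339 CPM (edgeR adjusted p = 0.22). Neither was called, and both were plentiful in both Schwann types.

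Kcnq5 had 430.2 and 329 CPM in non-myelinating cells and no UMI in myelinating cells, at least 19.5-fold lower (edgeR adjusted p = 1.6e-05). Kcnk10, Kcnn4 and Kcnj3 also had no UMI in myelinating cells. With 135705 and 210716 UMIs in that sub-class, a count of 0 allows up to 22.1 and 14.2 CPM. Kcnk10, Kcnn4 and Kcnj3 were thus at least 2.45-fold, 2.45-fold and 1.98-fold lower, and the Kcnj3 call was not made by DESeq2 (adjusted p = 0.21). Kcna6 had 106 and 119 CPM in non-myelinating cells and 1 and 3 UMIs in myelinating cells (edgeR adjusted p = 2.5e-04). Kcnh8 had 351 and 234 CPM against 14.7 and 37.97 CPM (log2 difference -3.44 ± 0.40, edgeR adjusted p = 7.7e-07). Of the potassium transport partners, 5 of 21 were higher and 2 lower in myelinating cells, where 4.93% of all genes tested were called higher and 7.41% lower, so the share of lower calls was near that of all genes.

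Endothelial cells (3152 and 7597 cells) had 15 members higher and 1 lower of 61 against the other classes, where 24.2% of all genes tested were called higher and 3.14% lower. The members' share of higher calls was thus near that of all genes. The split depended on the settings, with 14 higher and 8 lower among classes of at least 100 cells, and 9 higher and 13 lower by DESeq2. Kcnq1, a slowly activating delayed rectifier, had 48.2 and 39.7 CPM, and the leak channel Kcnk6 had 35.01 and 33.3 CPM. Both were above the next class, macrophages, in both libraries. Kcna5 had 37.8 and 67.7 CPM in endothelial and 52.2 and 70.5 CPM in mural cells, and these ranges overlapped.

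Arterial cells (514 and 654 cells) were compared with capillary (1786 and 5346 cells) and venous cells (216 and 235 cells). Of 55 members 5 were higher and 4 lower, where 5.47% of all genes tested were called higher and 5.14% lower. All 9 calls had the same sign in each library alone. The arterial genes were 2 calcium-activated channels, an inward rectifier, Kcnq1 and its auxiliary subunit Kcne3.

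Kcnn4 had 67.1 and 62.2 CPM in arterial, 1.45 and 1.08 CPM in capillary and 2.18 and 3.11 CPM in venous cells (edgeR adjusted p = 6.0e-10). Kcnn3 had 47.8 and 45.8 CPM, 6.02 and 3.66 CPM and 1.09 and 2.59 CPM in the same order (edgeR adjusted p = 1.0e-06). Kcnn3 and Kcnn4 are known for endothelium-dependent hyperpolarisation. Kcnj2 had 49.8 and 57.5 CPM in arterial, 6.99 and 3.83 CPM in capillary and 4.36 and 3.11 CPM in venous cells (edgeR adjusted p = 1.6e-08). Kcnq1 had 76.8 and 76.5 CPM, 30.1 and 22.05 CPM and 21.8 and 12.4 CPM (edgeR adjusted p = 3.0e-05). For these 4 genes the arterial values lay above all capillary and venous ones. Kcne3 had 67.6 and 51.9 CPM in arterial cells, 0.723 and 0.474 CPM in capillary cells and no UMI in venous cells, at least 20.7-fold higher in arterial than venous cells. Kcnk6 had 52.4 and 43.2 CPM in arterial, 20.7 and 26.6 CPM in capillary and 42.6 and 42.5 CPM in venous cells, a difference under 2-fold that was not called (log2 difference 0.65 ± 0.22).

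Kcna5 had 77.6 and 102 CPM in capillary cells, 0 and 3.11 CPM in venous and 0 and 0.447 CPM in arterial cells (edgeR adjusted p = 7.7e-05). Kcnc2, a fast delayed rectifier, had 204 and 122 CPM in venous, 19.5 and 13.3 CPM in capillary and 2.54 and 2.01 CPM in arterial cells (edgeR adjusted p = 9.1e-08). So the highest segment was capillary for Kcna5 and venous for Kcnc2, and venous against capillary cells was not tested. Kcnj15 had no UMI in arterial cells, 7.47 and 4.56 CPM in capillary and 5.46 and 2.07 CPM in venous cells (edgeR adjusted p = 0.0031).

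**Figure D2:**
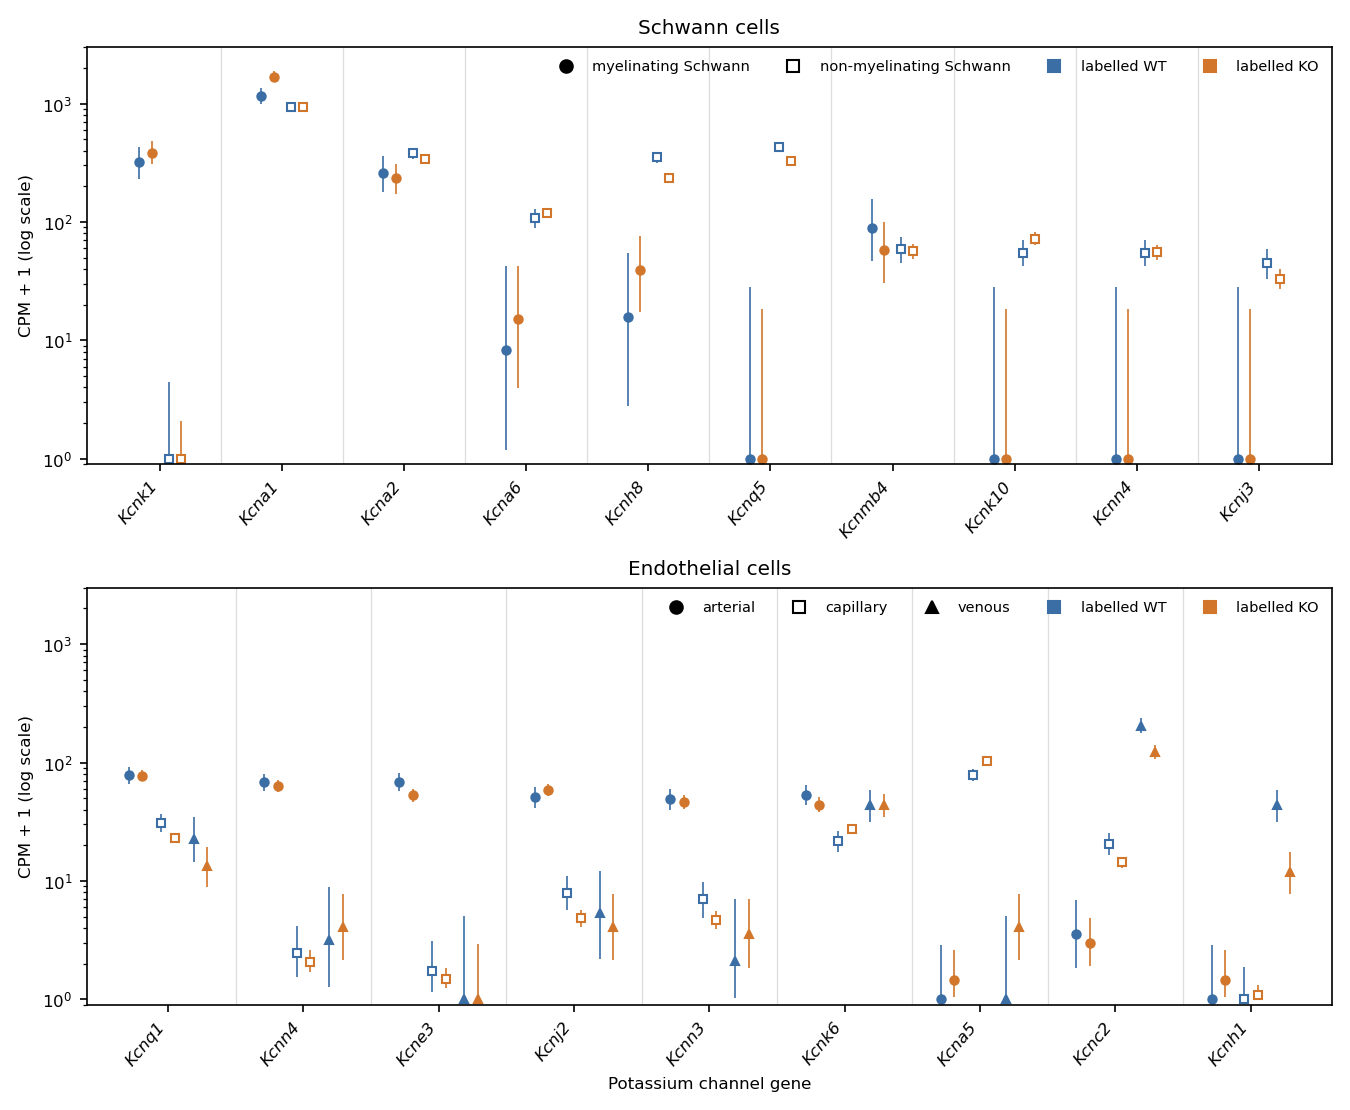
CPM + 1 on a log scale with exact Poisson intervals for counting error, in the Schwann cell types (upper panel) and in arterial, capillary and venous endothelial cells (lower panel); blue is the library labelled WT and orange KO. Kcnk1 is at 0 in non-myelinating cells, and Kcnq1, Kcnn4, Kcne3, Kcnj2 and Kcnn3 are highest in arterial cells.

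The stromal classes, FAPs, tenocytes and perineurial cells, had 18 members higher and 3 lower of 61 against the other classes, where 20.1% of all genes tested were called higher and 4.78% lower. With only classes of at least 100 cells, which leaves out the perineurial cells, 12 were higher and 7 lower, and Kcne4 and Kcnip1 changed sign. By DESeq2 20 were higher and 7 lower. The comparisons among the 3 classes follow.

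FAPs (1327 and 852 cells) were compared with tenocytes (544 and 359 cells), the fibroblasts of tendon. Of 55 members 9 were higher in FAPs and 13 in tenocytes, where 8.74% of all genes tested were called higher in FAPs and 5.43% in tenocytes. Kcnt2 had 258 and 175 CPM in FAPs and 1.19 and 1.59 CPM in tenocytes (log2 difference 7.20 ± 0.55, edgeR adjusted p = 6.0e-09). Kcnc2 had 28.5 and 12.2 CPM in FAPs and no UMI in tenocytes, at least 12.8-fold higher. These genes separated the classes in both libraries. The delayed rectifier Kcnb2 had 55.7 and 33.1 CPM against 8.74 and 0.953 CPM (edgeR adjusted p = 5.6e-05), a call that DESeq2 did not make (adjusted p = 0.46). Kcnq3, a subunit of M-type channels, had 5.15 and 9.79 CPM in FAPs and no UMI in tenocytes, at least 4.32-fold higher.

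Kcnma1 had 816 and 923 CPM in tenocytes and 19.98 and 12.7 CPM in FAPs (log2 difference -5.77 ± 0.26 for FAPs, edgeR adjusted p = 6.4e-12). Kcnmb2 had 28.6 and 48.3 CPM in tenocytes and 1.26 and 0.791 CPM in FAPs (edgeR adjusted p = 1.6e-06), whereas Kcnmb1 had no UMI in tenocytes. The BK pore gene was thus high in smooth muscle with Kcnmb1 and in tenocytes with Kcnmb2. The mechanically gated leak channel Kcnk2 had 130.3 and 133 CPM in tenocytes and 66.8 and 36.00 CPM in FAPs (edgeR adjusted p = 1.2e-04). Kcnab1 had 153 and 166 CPM against 90.5 and 39.8 CPM (edgeR adjusted p = 2.3e-04). FAPs were not uniform across the clusters described below. Kcnk2 ranged from 0 and 0.906 CPM in FAPs of cluster 24 to 297 and 130.1 CPM in those of cluster 38, near or above the tenocyte values. Kcnb2 had 117 and 219 CPM in FAPs of cluster 15 and no UMI in those of cluster 24. Kcnk1 had 8.34 and 3.81 CPM and Kcnn2 4.77 and 4.45 CPM in tenocytes, both called higher than in FAPs, where they had 0 and 1 UMIs and 1 and 2 UMIs; DESeq2 did not make the Kcnk1 call (adjusted p = 0.62). Kcnn3 had 24.2 and 46.4 CPM against 17.97 and 9.10 CPM (edgeR adjusted p = 0.0094), a call lost without the library block (adjusted p = 0.07).

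Perineurial cells, which ensheathe nerve fascicles, were few (79 and 78 cells). Against FAPs and tenocytes 9 members were higher and 5 lower of 55, where 6.08% of all genes tested were called higher and 9.07% lower. The comparison was with the mean of both classes on the log2 scale, so a gene low in tenocytes could be called higher while below FAPs. Kcnt2 was such a call, with 118 and 55.7 CPM in perineurial cells and 258 and 175 CPM in FAPs. Kcnj13, an inward rectifier known from ion-transporting epithelia, had 272 and 111 CPM, from 76 and 50 UMIs, against 0.377 and 0.494 CPM in FAPs and 0.795 and 0.318 CPM in tenocytes (edgeR adjusted p = 8.2e-10). Kcnj13 overlaps Gigyf2 on the opposite strand. Other members overlap opposite-strand genes too, such as Kcne3 (Gm34821, 8368 bases), Kcne4 (Gm29536, 3271 bases) and Kcnab1 (A330015K06Rik, 169626 bases). Whether such overlaps add to the counts was not tested. Kcnj2 had 218 and 77.9 CPM, against 0.377 and 0.791 CPM in FAPs and 6.75 and 5.40 CPM in tenocytes (log2 difference 5.77 ± 0.37, edgeR adjusted p = 6.4e-10). For both rectifiers the perineurial values lay above all FAP and tenocyte values.

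Kcne4 had 92.9 and 55.7 CPM in perineurial cells and 10.2 and 18.5 CPM in FAPs (edgeR adjusted p = 3.2e-06). Kcnip1, a calcium-binding subunit of transient outward channels, had 154 and 8.91 CPM, and 1 cell gave 65.1% of the first value's UMIs. The call for Kcnj12, a strong inward rectifier, rests on 0 and 2 UMIs and did not hold its sign in each library alone. Kcnma1 had 0 and 4.45 CPM and Kcnab1 0 and 11.1 CPM, both lower than in FAPs and tenocytes (edgeR adjusted p = 3.4e-07 and 5.0e-06). Kcnn3 and Kcnb2 had no UMI there, which allows up to 10.7 and 6.68 CPM, and the Kcnb2 call was not made by DESeq2 (adjusted p = 0.22).

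**Figure D3:**
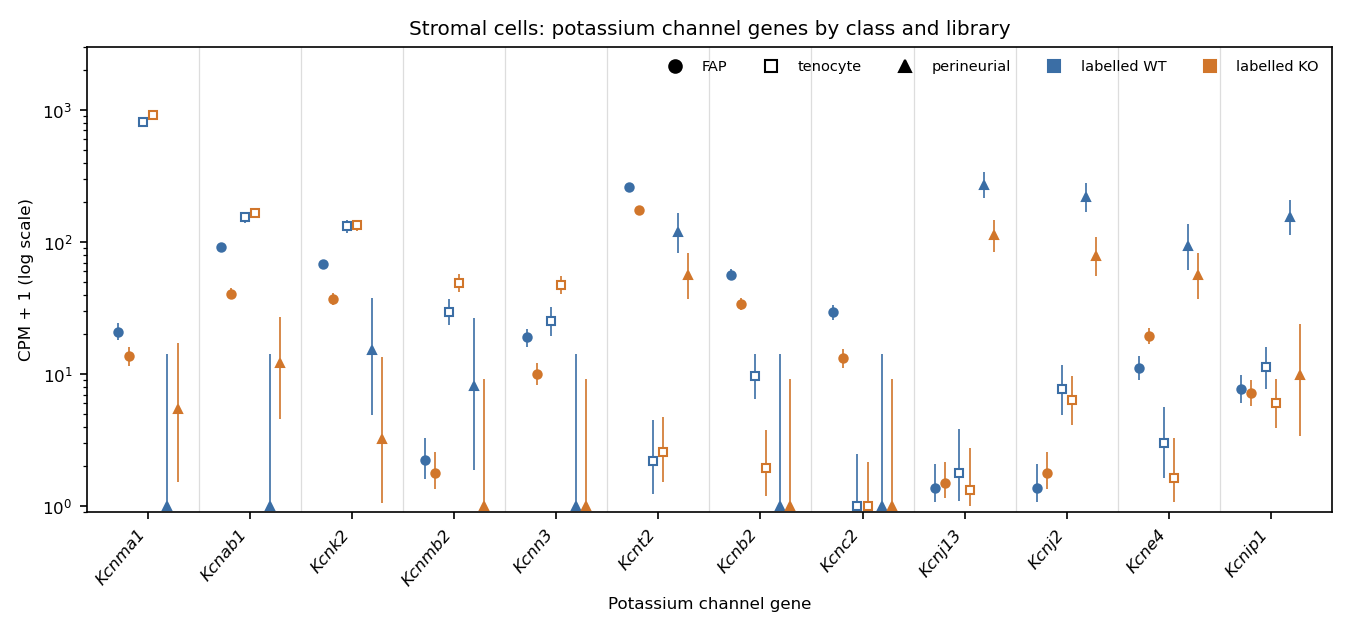
CPM + 1 on a log scale with exact Poisson intervals for counting error for 12 potassium channel genes in FAPs, tenocytes and perineurial cells; blue is the library labelled WT and orange KO. Kcnma1 stands at 816 and 923 CPM in tenocytes, Kcnt2 is highest in FAPs, and Kcnj13 is near 0 outside perineurial cells.

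Members were also found in the other classes. Myofibre-classed cells had the fast delayed rectifiers Kcnc1 (52.6 and 47.4 CPM) and Kcnc4 (28.3 and 40.5 CPM), and Kcnj11 (34.1 and 31.8 CPM), the pore of the ATP-sensitive channel of muscle. Myogenic cells had Kcnma1 (481 and 193 CPM), Kcnt2 (372 and 231 CPM) and Kcnn3 (74.6 and 35.3 CPM). Of these Kcnma1 was higher in tenocytes, while Kcnt2 overlapped FAPs and Kcnn3 overlapped tenocytes. Kcnk13, a leak channel known from microglia, had 159.6 and 132 CPM in macrophages. T cells had Kcnn4, known for its part in calcium entry on activation, at 76.8 and 113 CPM, and the beta subunit Kcnab2 at 45.2 and 62.8 CPM. Neutrophils had Kcnj2 at 59.8 and 91.1 CPM, from 7 and 120 UMIs, values that overlapped those of perineurial cells (218 and 77.9 CPM).

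The libraries labelled KO and WT were then compared within each class. With 1 library per genotype there is no replicate check and no test. Ratios are log2 of CPM + 1, KO over WT. The 95% exact binomial intervals are for the log2 ratio of CPM without the added 1, so they are not centred on the ratios given. They cover counting error only. A gene was counted where either library reached 20 CPM and the 2 together held 50 UMIs. The libraries also differed in make-up. When kept barcodes were clustered without the potassium channel genes, a cluster that took no class held 0 barcodes of the library labelled WT and 2874 of KO. A capillary cluster held 180 and 2320. Whether this bears on the ratios was not tested.

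In FAPs 1 of 7 members was higher by 2-fold or more under the KO label and 3 were lower by as much, where 4.08% of all genes counted were higher and 2.53% lower. Kcnd3 had 7.41 and 31.4 CPM, a log2 ratio of 1.95 (interval 1.68 to 2.51). Kcna2 had 24.8 and 5.54 CPM, a log2 ratio of -1.98 (interval -2.62 to -1.73). Kcnab1 had 90.5 and 39.8 CPM (-1.17) and Kcnc2 28.5 and 12.2 CPM (-1.17). None of these rested on 1 cell, since without the top cell of each library the ratios were 2.08, -2.02, -1.17 and -1.23. The members' median ratio was -0.87 and that of all genes 0.02. It was also negative in mural (-0.50), glial (-0.13), endothelial (-0.55), perineurial (-1.17), myogenic (-0.68) and myofibre-classed cells (-0.10) and in macrophages (-0.28). In tenocytes (0.18), T cells (0.55), B cells (0.30) and neutrophils (0.60) it was positive, with 1 member counted in B cells and 1 in neutrophils. Medians of all genes in these classes lay between -0.08 and 0.10, and the cause was not tested.

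The make-up of the FAP class differed between the libraries. Among clusters made without the potassium channel genes, the one led by F2rl1, Dio2 and Thbs1 (cluster 23) held 13 FAPs in the library labelled WT and 277 in that labelled KO, and the one led by G0s2 and Grm8 (cluster 15) held 488 and 86. Within cluster 15 Kcnd3 had 7.43 and 27.6 CPM, Kcna2 52.7 and 32.6 CPM, Kcnab1 144 and 95.8 CPM and Kcnc2 23.3 and 14.8 CPM. The directions there were those of the whole class, with Kcnd3 past 2-fold and the others within it. The other clusters did not all share them. Kcnab1 had 253 and 92.8 CPM in cluster 19, led by Pde11a and Neat1, but 41.5 and 55.7 CPM in cluster 32, led by Tenm2 and Spp1, and 2.64 and 8.16 CPM, from 4 and 9 UMIs, in cluster 24, led by Cmah and Sbsn. In cluster 23 Kcna2 had 21.2 and 1.59 CPM, the first from 2 UMIs, and so was lower there than in cluster 15 in both libraries. Cluster 23 had Kcnd3 at 10.6 and 47.4 CPM, from 1 and 179 UMIs. The 179 were part of the 318 Kcnd3 UMIs of all FAPs in the library labelled KO. Kcnd3 in cluster 16, led by Gdf10 and Prg4, had 0 and 12.6 CPM, in cluster 32 39.9 and 52.9 CPM, and in cluster 38, led by Sbspon and Coch, 18.2 and 10.3 CPM, from 3 and 6 UMIs. How much of each ratio the make-up accounts for was not tested.

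In mural cells 1 of 15 members was at least 2-fold higher and 1 lower, where 0.557% of all genes counted were higher and 1.0% lower. Kcnq5 had 133 and 45.9 CPM, a log2 ratio of -1.51 (interval -1.70 to -1.37). Kcnq5 was lower in pericytes (90.1 and 12.4 CPM), in smooth muscle (67.7 and 39.9 CPM) and in the mural cells of neither sub-class (255 and 84.2 CPM). Kcnip1 had 11.2 and 24.96 CPM (1.09), with 29.6% of its UMIs in the library labelled KO from 1 cell; without the top cells the ratio was 0.86. In pericytes 0 of 9 members were higher and 3 lower, where 1.05% of all genes counted were higher and 3.31% lower. These were Kcnq5 (-2.76), Kcnmb2 (36.7 and 8.35 CPM, -2.01) and Kcnt2 (76.1 and 21.6 CPM, -1.77). In smooth muscle 1 of 17 was higher and 0 were lower, where 0.722% of all genes counted were higher and 0.978% lower. This was Kcnip1 (22.4 and 72.3 CPM), with 41.2% of the UMIs in the library labelled KO from 1 cell.

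In glial cells 1 of 15 members was at least 2-fold higher and 0 lower, where 0.77% of all genes counted were higher and 1.23% lower. This was Kcnip4, an auxiliary subunit of transient outward channels, with 1 and 81 UMIs, of which 90.1% in the library labelled KO came from 1 cell. In endothelial cells 0 of 9 were higher and 1 lower, where 0.405% of all genes counted were higher and 1.36% lower. Kcne3 had 21.8 and 9.86 CPM (-1.07), while in arterial cells, which hold most of its UMIs, it had 67.6 and 51.9 CPM (-0.38). Arterial cells were 514 of 3152 endothelial cells in the library labelled WT and 654 of 7597 in that labelled KO. In venous cells 0 of 4 were higher and 1 lower, where 2.1% of all genes counted were higher and 2.52% lower. This was the ether-a-go-go channel Kcnh1, with 42.6 and 10.9 CPM.

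In perineurial cells 0 of 4 members were at least 2-fold higher and 3 lower, where 6.07% of all genes counted were higher and 4.83% lower. Kcnj13 had a log2 ratio of -1.28 (interval -1.83 to -0.75), Kcnj2 -1.47 (interval -2.13 to -0.86) and Kcnt2 -1.07 (interval -1.89 to -0.29). In tenocytes 0 of 5 passed 2-fold in either direction, where 3.71% of all genes counted were higher and 3.24% lower. In myogenic cells 0 of 5 were higher and 2 lower, where 3.58% of all genes counted were higher and 3.52% lower. These were Kcnma1 (481 and 193 CPM) and Kcnn3 (74.6 and 35.3 CPM). In myofibre-classed cells 1 of 5 was higher and 0 were lower, where 3.33% of all genes counted were higher and 1.28% lower. This was Kcnma1 (15.6 and 46.1 CPM). There 1 cell gave 42.5% of the Kcnma1 UMIs under the KO label.

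**Figure D4:**
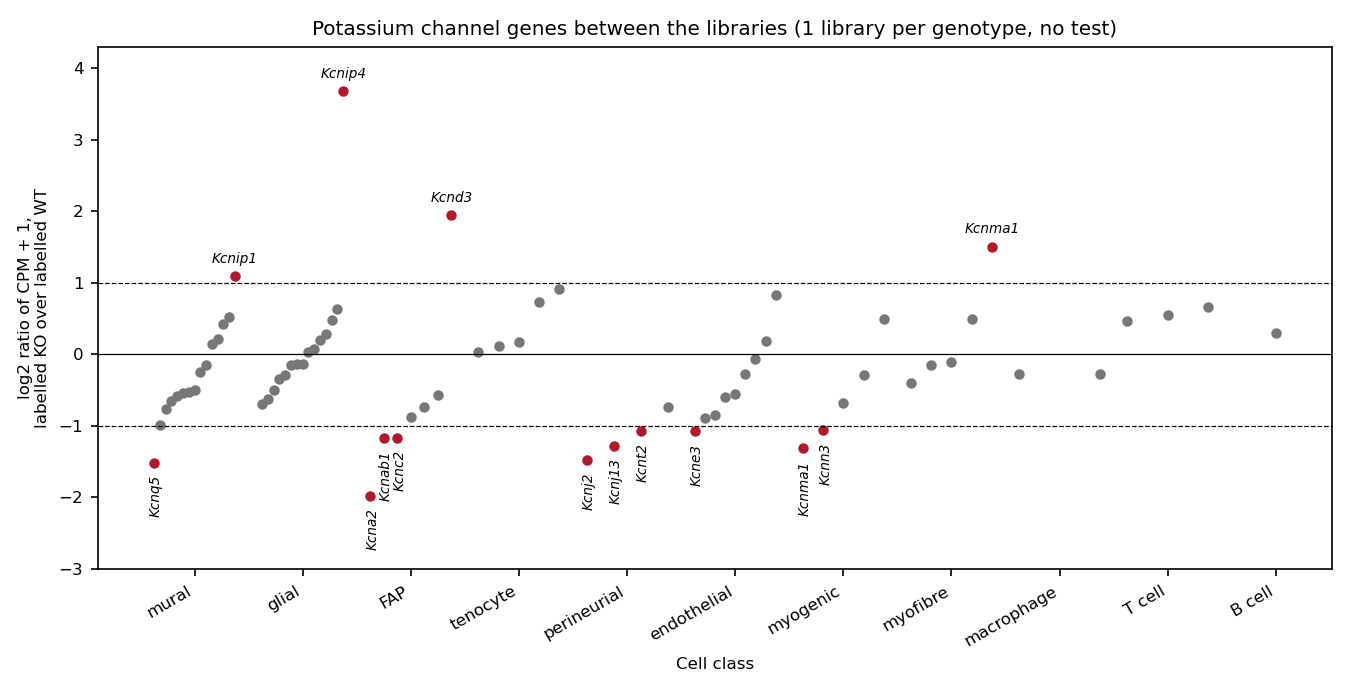
Log2 ratio of CPM + 1, the library labelled KO over that labelled WT, on the vertical axis for each potassium channel gene counted. The horizontal axis gives the main classes other than monocytes and neutrophils, and sub-classes are not plotted. Dashed lines mark 2-fold and red points lie past it. Most points lie within 2-fold; among those plotted Kcnip4 in glial cells is highest, at 3.68, and Kcna2 in FAPs is lowest, at -1.98.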

How the data were processed

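The deposited matrices hold UMI counts per gene and barcode for 2 libraries, which the authors made with Cell Ranger on mm10. The submitters' processing notes name version 9.0.0, whereas per the file headers WT was counted with 8.0.0 and KO with 9.0.0. Barcodes were kept from 500 genes upward and up to 10% mitochondrial UMIs, and those with over 5% erythroid UMIs were left out. A barcode was given a class if it held at least 3 of 8 markers of a class and at least 2 times as many as of any other class; those with mixed markers (749 and 2668) were left out, which stands in for a doublet caller. Sub-classes needed 2 of 6 markers. Counts were summed per class and library and tested with edgeR 4.0.16 (TMM, library block, at least 50 UMIs) in R 4.3.3. Alternatives were DESeq2 1.42.0, no library block, no TMM factors, other UMI minimums, gates of 1 marker more or fewer, a stricter cell filter, Leiden clusters, cells thinned to 2000 UMIs, another pseudocount or level floor, each library alone and, added later, only classes of at least 100 cells. Leiden clusters came from scanpy 1.11.5. Classes needed 50 cells in each library; myelinating Schwann cells had fewer, so they were fitted apart with a minimum of 30, a change made after the data were seen. On simulated counts for the mural comparison, 99% of 200 genes changed 4-fold among 16702 were recovered, with 8 false calls. The changed genes were drawn from those with at least 500 UMIs, whereas members were tested from 50 UMIs. Unchanged genes were given the same level in every class. These rates therefore do not carry over to members with few UMIs or to genes that differ among the other classes.

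Sequencing gave 38014703 and 101570863 UMIs over 11360 and 19531 barcodes. Intervals and limits for a count of 0 cover counting error only. The members and lists were chosen with earlier results of these data known. Members named were those at 20 CPM or more in both libraries of a class (up to 6 per class), up to 4 of the largest changes in each direction of a sub-class comparison, and those past 2-fold between libraries. Others named, such as Kcnmb1, Kcnk3, Kcnn3, Kcnj10 and Kcnk6, were chosen after their values were seen. Some genes are included in the counts but not reported here by name. The labels do not say that the counts come from more than 1 pool per genotype.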

Additional observations from a re-analysis of the deposited data

Results flagged for a closer look

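The direction of Kcnma1 between libraries differed between the muscle classes. In myofibre-classed cells its log2 ratio, KO over WT, was 1.51 (interval 0.80 to 2.42, from 16 and 106 UMIs), and in myogenic cells it was -1.31 (interval -1.44 to -1.19, from 954 and 1043 UMIs). With 1 library per genotype this difference was not tested. In myofibre-classed cells 42.5% of the UMIs in the library labelled KO came from 1 cell, and the ratio without the top cells was 1.01. With Leiden clusters in place of the marker gate it was -0.64.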

How the results depend on the processing

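The counts of members called between classes, with higher and lower calls added up, were within 1.5 times the reported count under the alternatives run. The split between higher and lower calls moved more: by DESeq2 it was 9 and 13 in endothelial cells (15 and 1 as reported), 20 and 6 in mural cells (29 and 0), 18 and 3 in glial cells (24 and 1) and 20 and 7 in stromal cells (18 and 3). Leaving out either library kept the direction of the 123 calls between classes for members that reached 20 CPM in both libraries of a class or sub-class. Among the other calls Kcnip4 in glial and Kcnj12 in perineurial cells did not keep it. Only classes of at least 100 cells, an alternative chosen after seeing the data, turned the stromal difference of Kcne4 to -0.42 and of Kcnip1 to -0.26, and the cause was not tested.

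The number of members past 2-fold between the libraries moved more. With each cell thinned to 2000 UMIs it was 4 in mural cells (2 as reported), 0 in glial (1), 1 in perineurial (3) and 4 in endothelial cells (1). With at least 50 CPM required, which counts fewer genes, it was 1 in mural, 0 in glial, 1 in FAPs (4 as reported) and 0 in endothelial cells. With a pseudocount of 5 CPM it was 1 in mural and 0 in endothelial cells, and with Leiden clusters 1 in tenocytes (0 as reported). Kcnip1 in mural cells turned to -0.35 when thinned, and Kcnma1 in myofibre-classed cells to -0.64 with Leiden clusters; the cause was not tested. No paired analysis of KO against WT was possible because the labels give no replicate numbers and each genotype has 1 library. Depth limits classes with few UMIs; for example, a count of 0 allows up to 22.1 and 14.2 CPM in myelinating Schwann cells, 10.7 and 6.68 CPM in perineurial cells and 25.6 and 2.28 CPM in neutrophils.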
